A study of Mus musculus with 12 samples.

Results

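The genes described here are those named for proteins of the cytosolic ribosome in mouse. They were chosen by symbol from the RefSeq genes of GRCm38.p6, the assembly that mm10 names, as the protein-coding genes whose symbol is Rpl or Rps followed by a digit, together with Rplp0, Rplp1, Rplp2 and Rpsa. Symbols starting with Rps6k and pseudogenes were left out, among them Rpl31-ps12 and Rpl34-ps1, which the table lists as protein-coding. This gave 89 members of 21887 protein-coding genes, 54 of the large and 35 of the small subunit by symbol, on 19 chromosomes. Of these, 10 symbols end in l, l1 or rt, which marks paralogs and retrogenes, and Rps19bp1 encodes a protein that binds Rps19 rather than a ribosomal protein. Rps23rg1, whose symbol has another ending, was counted among the symbols without a suffix. The group itself was selected on the peaks in these lists, with p53 peaks at Rps19 and Rps27l already known, so its counts and folds are descriptions.

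Each ribosome joins a small subunit, which decodes the messenger RNA, to a large subunit, which forms the peptide bond, and every dividing cell of the epidermis and hair follicle needs a steady supply of both. Ribosomal proteins are also tied to p53, a transcription factor that acts after DNA damage. When ribosome assembly is disturbed, free Rpl5 and Rpl11 bind Mdm2, the ubiquitin ligase that degrades p53, and p53 accumulates. In mouse skin, missense mutants of Rps19 and Rps20 have dark skin that depends on p53 in keratinocytes, and Rps27l, a paralog of Rps27, is a known p53 target gene whose product binds Mdm2.

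The study profiled chromatin from back skin of mice aged 8 to 10 weeks with hair follicles in the growth phase, under a protocol of 5 Gy of ionizing radiation. Chromatin immunoprecipitation followed by sequencing was done at T0 and 6 h with an antibody to p53, in K17KO and in wild-type (WT) skin, and with one to H3K4me3, the histone H3 modification found at active gene starts, in WT skin. These are 12 samples in 6 groups of 2. The labels give radiation as the treatment of every sample, T0 included, and do not say what K17KO stands for or whether both samples of a group are from different mice.

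The values are 3 peak lists, of 1101 peaks for K17KO p53, 2909 for WT p53 and 5464 for H3K4me3. No list names a library, time or replicate, so T0 and 6 h cannot be compared, no value has a replicate error, and K17KO and WT values are given side by side without a test. WT is inferred for the p53 list that names no genotype. A peak is described by the authors' fold enrichment, by the fragments at its summit, the point of highest signal, and by the background fragments there. The summit fragments of a median peak were 11, 7 and 148 in the 3 lists. Whole skin was used, so a mark in more cells and a stronger mark per cell cannot be told apart. Of the markers of skin cell types, 4 of 15 keratinocyte genes had an H3K4me3 peak (26.7%, against 23.9% of all protein-coding genes). These peaks lay inside Krt1 (4.84-fold) and Krt15 (2.69-fold) and outside Krt10 (9 fragments over 1.34) and Klf4 (1.49-fold), and the basal keratins Krt5 and Krt14 had none. The counts were 1 of 8 for dermal fibroblast markers (12.5%) and 2 of 12 for endothelial, immune, melanocyte, fat and muscle markers (16.7%). Of these marker lists, the dermal fibroblast one alone held p53 peaks. In the K17KO list they were at 0 of 8 genes (exact 95% Clopper-Pearson interval up to 36.9%), against 3.79% of all protein-coding genes. In the WT list they were at 3 of 8 (37.5%, 8.52 to 75.5), against 6.75%. These were Col3a1, Thy1 and Twist2, on 9, 7 and 9 fragments, and the Thy1 peak lay outside the gene.

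The p53 peaks were examined first. A member had a peak where a peak's midpoint lay inside the gene or within 5 kb of its ends. In the K17KO list 4 of 89 members had one (4.49%, exact 95% Clopper-Pearson interval 1.24 to 11.1), namely Rps27l, Rps19, Rpl36al and Rpl27, against 3.79% of all protein-coding genes. In the WT list 3 of 89 did (3.37%, 0.701 to 9.54), namely Rps19, Rps27l and Rpl22, against 6.75% of all protein-coding genes. A longer gene is more readily counted, and the median length was 3183 bp for the members and 17169 bp for all protein-coding genes. How the shares stood to the background depended on the setting. In both lists each of these members had a peak midpoint inside the gene. The nearest peaks beyond the 5 kb limit lay 7497 bp from Rps25 in the K17KO list and 9405 bp from Rpl35 in the WT list.

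Rps19 and Rps27l were the members with a p53 peak in both genotypes, and in each gene the K17KO and WT peaks overlapped each other and an H3K4me3 peak. How many of all protein-coding genes had a peak in both p53 lists is not given here. Both genes were known to have p53 peaks when the group was chosen, so this sharing is a description. The K17KO peak at Rps19 began 1 bp before the first annotated start, and the others began after it. The RefSeq windows of 250 bases before to 50 after a start cover part of these peaks, and within them each gene held 1 sequence close to a p53 site, which is a pair of adjacent half-sites of 10 bases. The stretches are shown because they lie under the summits of all 3 lists. Capitals mark the paired half-sites, and the letters run 5′ to 3′ on the plus strand of the GRCm38.p6 build, at chr7:24884763-24884862 for Rps19 and chr9:66946256-66946355 for Rps27l.
Rps19: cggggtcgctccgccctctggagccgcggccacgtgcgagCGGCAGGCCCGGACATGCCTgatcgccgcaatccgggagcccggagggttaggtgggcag
Rps27l: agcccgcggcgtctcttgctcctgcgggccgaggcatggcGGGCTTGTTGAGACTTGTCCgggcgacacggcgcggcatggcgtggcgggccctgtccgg

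In Rps19 the first half-site matched the p53 half-site consensus at 8 of 10 positions and the second at 10. In Rps27l the matches were 9 and 10. The summit lay 34 bp before the centre of the Rps19 pair in the K17KO list and 26 bp after it in the WT list. For Rps27l the summit lay 19 bp after the centre in the K17KO list and 22 bp after it in the WT list.

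Such a pair, with at most 2 mismatches in all and 1 half-site exact, occurred in 2 of 81 member windows (2.47%), in Rps19 and Rps27l, and in 81 of 21263 windows of protein-coding genes (0.381%). The criterion was set after these sequences were seen. The pair was present in 2 of 100 windows that overlapped a K17KO p53 peak, both of them in these members. It was present in 4 of 47 windows that overlapped a WT p53 peak, and the same windows of Rps19 and Rps27l are among these. A single exact half-site was found in 9 of 81 member windows (11.1%), against 7.37% of all windows. These 9 windows belong to 6 of 69 genes, since windows of starts that lie close together overlap. It was present at Rpl35a, Rps21, Rps27 and Rps27rt, which had no p53 peak within 5 kb in either list. The nearest p53 peak to Rps27 lay 2139 kb away in the K17KO list and 62.1 kb away in the WT list. A match in these letters is not evidence of binding.

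**Figure D1:**
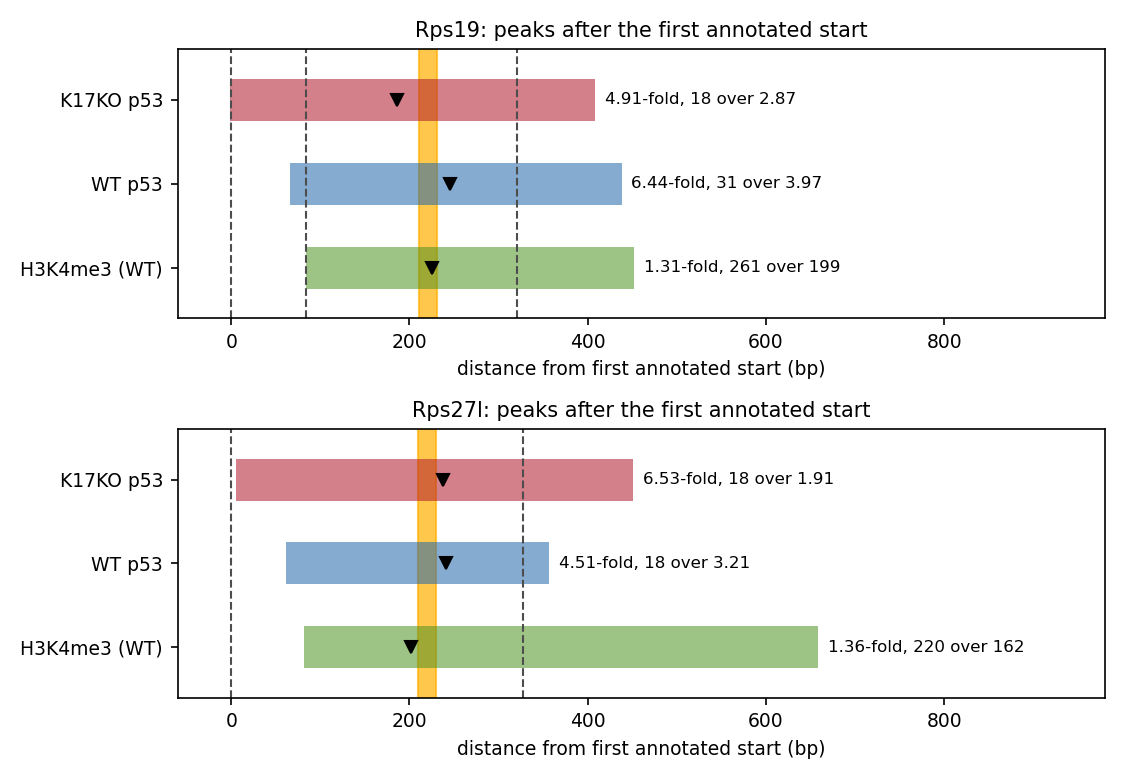
Peaks at Rps19 (top) and Rps27l (bottom) by distance in bp from the first annotated start. Bars are the extent of each peak, triangles its summit, dashed lines the annotated starts and the orange band the paired p53 half-sites; the text beside a bar gives fold and fragments over background. In both genes the peaks of all 3 lists cover the band.

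Rps19, a small-subunit protein needed to mature the small subunit's RNA, had 18 fragments over a background of 2.87 in the K17KO list and 31 over 3.97 in the WT list. These gave folds of 4.91 in K17KO (95% Poisson counting interval 3.02 to 7.62) and 6.44 in WT (4.44 to 9.06), which overlap. The peak spanned chromosome 7 from 24884591 to 24884999 in the K17KO list and from 24884658 to 24885029 in the WT list. By its p-value it stood at place 105 of 1101 in the K17KO list and at place 6 of 2909 in the WT list. The gene has 3 annotated starts, and the summit lay 186 bp after the first of them in K17KO and 246 bp after it in WT. Intervals here cover the counting of summit fragments only.

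Rps27l had 18 fragments over 1.91 in the K17KO list and 18 over 3.21 in the WT list. The folds were 6.53 in K17KO (95% Poisson counting interval 4.01 to 10.12) and 4.51 in WT (2.77 to 6.99), so the order of the genotypes was the opposite of that at Rps19, and the intervals again overlap. The peak spanned chromosome 9 from 66946091 to 66946536 in the K17KO list and from 66946147 to 66946442 in the WT list, and the summits were 3 bp apart. It stood at place 20 of 1101 by p-value in the K17KO list and at place 62 of 2909 in the WT list. Rps27, the paralog on chromosome 3, had no p53 peak within 5 kb in either list and a 1.44-fold H3K4me3 peak inside the gene.

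The other 3 members had a p53 peak in 1 list each, and these rested on fewer fragments. Rpl36al, a paralog of Rpl36a, had 2 K17KO peaks on either side of its start, which faces that of Mgat2, a Golgi enzyme gene. The first, inside Rpl36al with its summit 253 bp after the start, had 8 fragments over 0.956 (4.60-fold). The second, whose midpoint lay inside Mgat2, had 11 fragments over 0.945 (6.17-fold). No H3K4me3 peak lay within 5 kb of Rpl36al, and the nearest WT p53 peak was 101 kb away. Rpl27, a large-subunit protein, had a K17KO peak with 8 fragments over 0.956 (4.60-fold), and its summit, 372 bp after the start, was 8 bp from that of an H3K4me3 peak that covered all of it. The nearest WT p53 peak was 264 kb from Rpl27. Rpl22, which binds viral and cellular RNAs outside the ribosome as well, had a WT peak with 6 fragments over 1.07 (3.38-fold) and a −log10 q of 0.656, and it did not remain at a q-value of at most 0.1. That peak shared 9 bp with an H3K4me3 peak, and the nearest K17KO p53 peak was 150 kb away.

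**Figure D2:**
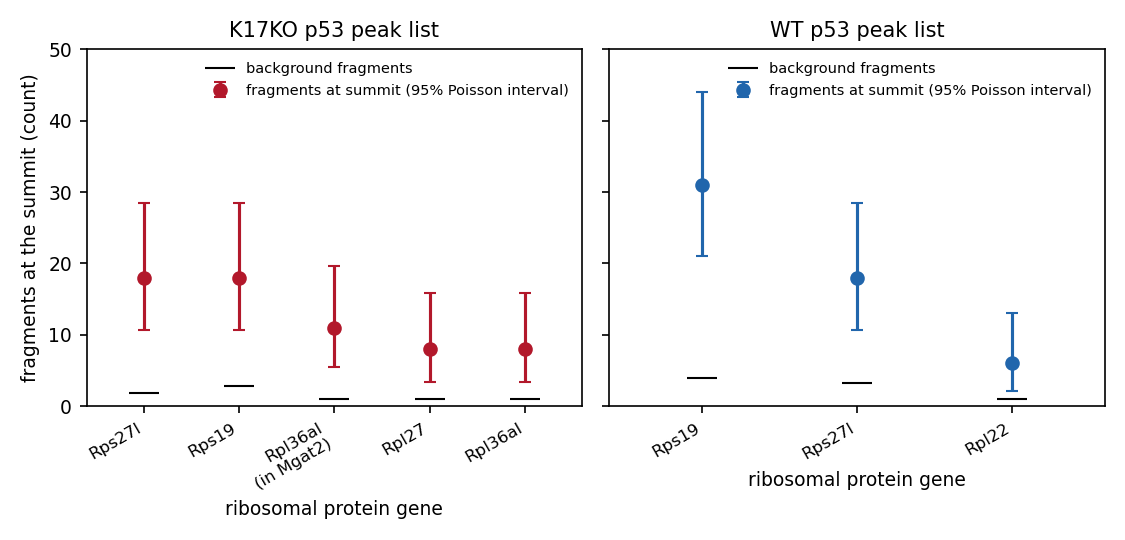
Fragments at the summit of each p53 peak at a ribosomal protein gene (points, with 95% Poisson intervals) and background fragments (black dashes), for the K17KO list (left) and the WT list (right). Rps19 and Rps27l have 18 to 31 fragments, the other peaks 6 to 11, and the second Rpl36al peak lies inside Mgat2.

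The members and the background were also counted under other rules for a peak. In the K17KO list the same 4 members were found inside the gene only (background 3.04%), within 1 kb (3.27%), with any base within 5 kb (3.84%), near a gene end only (2.37%), at a q-value of at most 0.1 (3.79%) or 0.01 (2.77%) and in the upper 50% by fold (1.91%), and Rps25 was added within 20 kb (5.94%). In the WT list the same 3 members were found inside the gene only (5.39%), within 1 kb (5.70%), with any base within 5 kb (6.76%) and near a gene end only (2.72%). Rps19 and Rps27l alone remained at a q-value of at most 0.1 (4.07%) or 0.01 (0.822%) and in the upper 50% by fold (3.58%), and 7 members were found within 20 kb (10.8%). The member share was therefore below the background under some of these rules and above it under others.

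In a count that does not depend on gene length, the summit had to lie 0 to 500 bp after an annotated start. This rule was added after the data were seen. It was met by 4 of the 69 members with an annotated start in the K17KO list (5.80%, 95% Clopper-Pearson interval 1.60 to 14.2), against 0.789% of 17492 protein-coding genes with one. In the WT list 2 of 69 met it, Rps19 and Rps27l (2.90%, 0.353 to 10.1), against 0.269%. Both genes are also among the 4 in the K17KO list, and their p53 peaks were known when the group was chosen. Their WT summits lay before the nearest start and met the rule through an earlier one. These shares are therefore descriptions and not a test. By the same rule mitochondrial ribosomal protein genes had 0 of 69 in each p53 list (interval up to 5.21%) and ribosome biogenesis factors 0 of 30 (up to 11.6%). Translation factors had 1 of 16 in the K17KO list (6.25%, 0.158 to 30.2), a share as high as that of the members, and 0 of 16 in the WT list (up to 20.6%).

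H3K4me3 was found at many more members. In all, 44 of 89 had a peak (49.4%, 95% Clopper-Pearson interval 38.7 to 60.2), against 23.9% of all protein-coding genes. By the rule on start sites the count was 28 of 69 (40.6%, 28.9 to 53.1), against 13.2%. The count was 37 inside the gene only (background 18.5%), 38 within 1 kb (21.1%), 44 with any base within 5 kb (24.0%), 44 near a gene end only (21.5%) and 56 within 20 kb (32.9%). With q-values limited to 0.1 it was 42 (22.0%) and with 0.01 it was 34 (18.4%), but it was 7 in the upper 50% by fold (10.8%). By subunit there were 26 of 54 large-subunit genes (48.1%, 34.3 to 62.2) and 18 of 35 small-subunit genes (51.4%, 34.0 to 68.6). Of the 30 members that hold a small nucleolar RNA gene, which encodes a guide for chemical modification of ribosomal RNA, 15 had a peak, as did 29 of the 59 that hold none. Of the 11 members with a suffix or of the binding protein kind, 3 had one (27.3%, 6.02 to 61.0), namely Rps27l, Rpl3l and Rps19bp1. This interval held both the share over all members and that over all protein-coding genes, and the Rpl3l peak lay outside the gene.

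**Figure D3:**
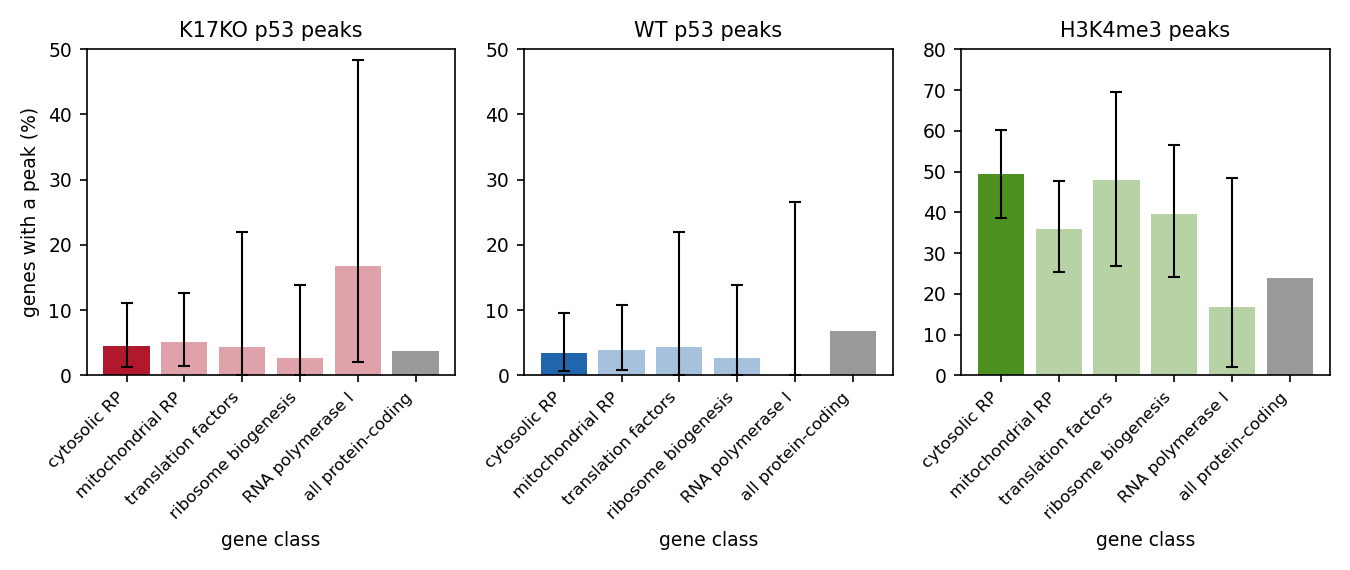
Percent of genes with a peak inside the gene or within 5 kb, for K17KO p53, WT p53 and H3K4me3, in cytosolic ribosomal protein (RP) genes and other gene classes; bars on the columns are 95% Clopper-Pearson intervals. Cytosolic RP genes stand at 4.49% and 3.37% for p53 and at 49.4% for H3K4me3, beside 3.79%, 6.75% and 23.9% of all protein-coding genes (grey).

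In 37 members the H3K4me3 peak lay inside the gene, and these 37 peaks had similar values. Their folds ran from 1.30 to 1.74 with a median of 1.42, on 180 to 269 summit fragments over a background of 106 to 199. Over all H3K4me3 peaks at protein-coding genes the median fold was 1.61, on 164 fragments over 103, with folds of 1.22 to 10.3. The fold was below the median of the whole list, 1.66, in 34 of the 37. The sources used here do not say which control lies behind the background, so a fold is an excess over that background and not a level of the mark. For 32 of the 37 genes the counting interval of the fold held the median of 1.42, so most of these genes cannot be ordered. The interval lay above it for Rps16, Rps19bp1, Rpl3, Rpl11 and Rps20, and below it for none.

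Rps16, a small-subunit protein, had the highest fold of a peak inside a member, 1.74, with 238 fragments over 136 and the summit 319 bp after the start. Rpl3, which lies at the peptidyl transferase centre, followed with 232 over 137 (1.68-fold), just after Rps19bp1 with 180 over 106. Rpl11, the Mdm2-binding protein, had 253 over 153 (1.65-fold), Rps20 had 252 over 152 (1.65-fold) and Rpl38, whose loss in the mouse shortens the tail, had 243 over 150 (1.62-fold). The lowest folds of peaks inside a gene were at Rpl9 and Rpl26 (both 1.30), Rps19 and Rpl24 (both 1.31), Rpl34 and Rpl12 (both 1.32) and Rpl36 (1.33). Rps19 had the highest background of the 37, at 199, with 261 fragments at the summit. Rps27l had 220 fragments over 162 (1.36-fold).

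**Figure D4:**
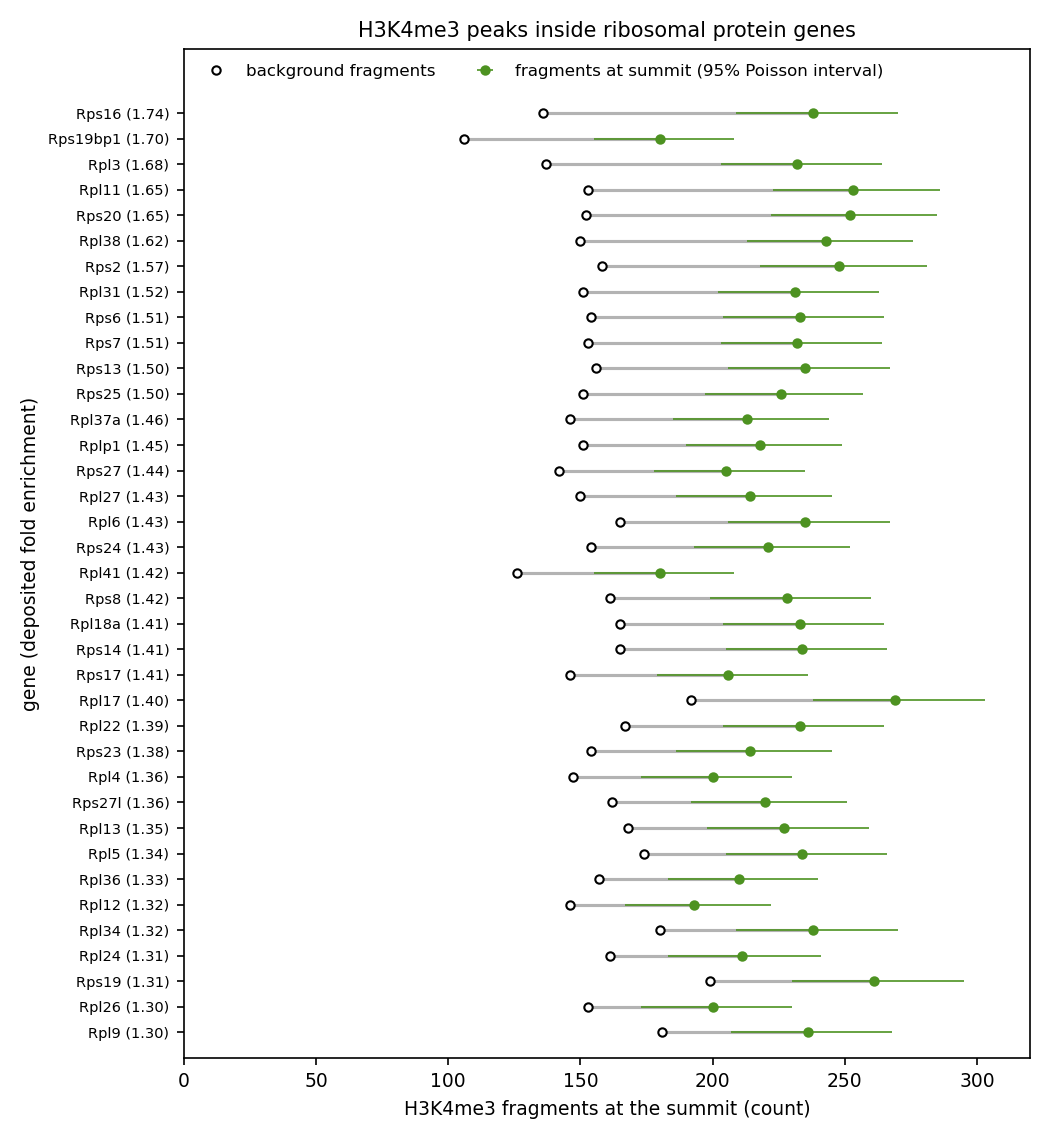
H3K4me3 fragments at the summit (green, with 95% Poisson intervals) and background fragments (open circles) for the 37 peaks inside ribosomal protein genes, ordered by the deposited fold given beside each symbol. Summit fragments lie between 180 and 269 and folds between 1.30 and 1.74, and most intervals overlap.

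The H3K4me3 summits of the members lay mostly downstream of the start. Of the members with an annotated start, 28 had an H3K4me3 summit within 1 kb of one, at a median of 257 bp after it (25th to 75th percentile 222 to 322). Other protein-coding genes with such a summit had a median of 211 bp (130 to 272, n = 3014). A summit 150 to 500 bp after any annotated start was present in 28 of the 28 members and in 2096 of the 3014 other genes (69.5%). By the distance to the nearest start alone, as for the medians, it was 25 of 28 (89.3%) and 1987 of 3014 (65.9%). The limits were set after the values were seen, so the share of the members is not a test. Summits nearer to a start that lies downstream were found at Rps19 and Rps27l, which have more than 1 start, and a summit 334 bp before the start at Rps6, which had a second peak 435 bp after it.

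**Figure D5:**
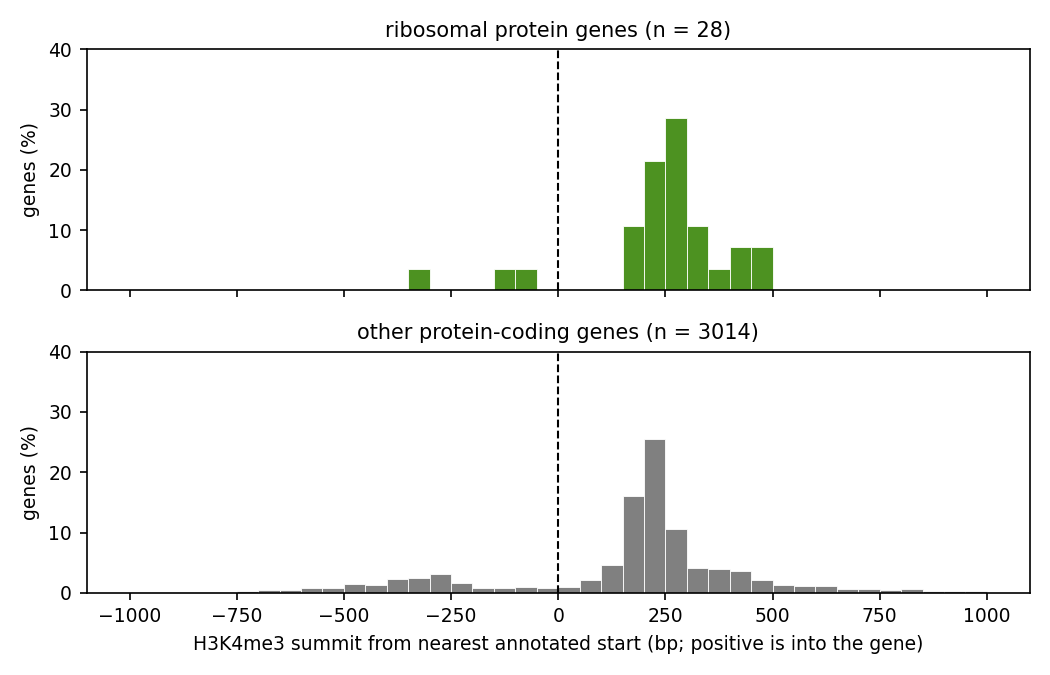
Distance of the H3K4me3 summit from the nearest annotated start in bins of 50 bp, as a percent of genes, for 28 ribosomal protein genes (top) and 3014 other protein-coding genes (bottom). Positive distances run into the gene; the medians are 257 bp and 211 bp.

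For 7 members the peak lay outside the gene, and several of these peaks were at a neighbour's start. The nearest peak to Rpl35 had its summit 154 bp before the start of Wdr38. The summit counted for Rpl35a lay 197 bp after the start of Lmln, that for Rpl3l 260 bp after the start of Msrb1, and that for Rplp2 200 bp after the start of Pnpla2. The peak counted for Rpl7a had its midpoint in Surf2 and that for Rps28 in Kank3. The Rps28 peak, with 153 fragments over 63.6, gave the highest fold counted for any member, 2.38. The highest peaks counted for Rpl12 (1.72) and Rpl24 (1.71) also lay outside those genes, that of Rpl24 inside Zbtb11, while each had a lower peak inside (1.32 and 1.31). The farthest peaks counted had their midpoints 4868 bp from Rps19bp1, inside Atf4, and 4867 bp from Rps28, and the nearest one not counted was 5522 bp from Rpl23a. In all, 45 members had no H3K4me3 peak within 5 kb, and 44 had no peak in any list, among them Rplp0, Rpl32 and Rps3. The lack of a listed peak does not show that a gene lacks the mark.

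Members with roles in p53 control or disease were looked at by list, beside the shares over all members (4.49% for K17KO p53, 3.37% for WT p53 and 49.4% for H3K4me3) and over all protein-coding genes (3.79%, 6.75% and 23.9%). Of 15 ribosomal proteins reported to bind Mdm2, 9 had an H3K4me3 peak, namely Rpl5 (1.34-fold), Rpl11 (1.65), Rpl26 (1.30), Rps7 (1.51), Rps14 (1.41), Rps20 (1.65), Rps25 (1.50), Rps27 (1.44) and Rps27l (1.36), and Rps27l alone had a p53 peak, in both genotypes (6.67% in each list). The interval of the H3K4me3 share, 32.3 to 83.7% around 60%, held the share over all members. Rpl23, Rpl37, Rps3, Rps15, Rps26 and Rps27a had no peak in any list. Of 19 genes mutated in human Diamond-Blackfan anaemia, a failure of red cell production, 13 had an H3K4me3 peak, 2 a K17KO p53 peak (Rps19 and Rpl27) and 1 a WT p53 peak (Rps19). The H3K4me3 share was 68.4% (43.4 to 87.4), which again held that over all members, and the count was 10 of 19 with the midpoint inside the gene, since the peaks counted for Rpl35, Rpl35a and Rps28 lay outside those genes. Those without a peak in any list were Rpl15, Rpl18, Rps10, Rps15a, Rps26 and Rps29. Of 6 genes with mouse coat or skin colour mutants, Rps19, Rps20, Rps7, Rpl24 and Rpl38 had an H3K4me3 peak (83.3%, 35.9 to 99.6) and Rpl27a had none.

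Other genes of the translation pathway were counted in the same way, against the same shares over all protein-coding genes (3.79% for K17KO p53, 6.75% for WT p53 and 23.9% for H3K4me3). Mitochondrial ribosomal protein genes had an H3K4me3 peak in 28 of 78 (35.9%), translation factors and other genes of the terminal oligopyrimidine class in 11 of 23 (47.8%), ribosome biogenesis factors in 15 of 38 (39.5%) and the RNA polymerase I machinery in 2 of 12 (16.7%). The highest folds of the classes were 1.66 inside Eif3f, a subunit of an initiation factor, and, with peaks outside the gene, 1.99 for Mrpl45, 2.05 for Fbl, the ribosomal RNA methyltransferase fibrillarin, and 1.92 for Polr1b. K17KO p53 peaks were found at 4 mitochondrial ribosomal protein genes (5.13%), led by one outside Mrpl40 (5.21-fold), at the translation gene Tpt1 (4.63), at the biogenesis gene Nob1 (3.45) and at 2 polymerase I genes, led by Taf1b (4.11), which is 4.35%, 2.63% and 16.7% of the last 3 classes. WT p53 peaks were found at 3 mitochondrial ribosomal protein genes (3.85%), led by one outside Mrpl38 (4.11-fold), at Eif4b (4.52) and at Rrp12 (3.06), and at 0 of the 12 polymerase I genes. Apart from the polymerase I list of 12 genes, these p53 shares were near or below those over all protein-coding genes. For that list the 95% Clopper-Pearson interval of the K17KO share was 2.09 to 48.4, which held 3.79%. With q-values limited to 0.01 its K17KO count was 0 of 12. At Tpt1, a growth-related gene of the oligopyrimidine class, the K17KO summit lay 275 bp after the start with 8 fragments over 0.945.

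Messenger RNAs of ribosomal proteins typically begin with a C and a run of pyrimidines, the terminal oligopyrimidine motif through which their translation is controlled. A C followed by at least 6 pyrimidines began exactly at the annotated start in 11 of 81 member windows (13.6%), against 213 of 21263 windows of protein-coding genes. Within 10 bases of the start it was found in 32 of 81 (39.5%), against 12.5%. The stretches below show 15 bases on each side of the start, 5′ to 3′ on the gene's own strand. The first 3, with the tract in capitals, are those of the 11 that had an H3K4me3 peak inside the gene. Of the rest, Rpl35 and Rpl35a had H3K4me3 peaks only outside the gene. Rpl15, Rpl28, Rpl32l, Rps10, Rps15a and Rps18 had no peak in any list. The first starts of Rps19 and Rps27l are also shown, where no tract begins at that base. Both genes have a tract within 10 bases of a start, Rps27l at the start shown and Rps19 at its last one. The stretches lie at chr3:90213634-90213663 (minus strand) for Rps27, chr4:86857353-86857382 (minus) for Rps6, chr11:114668565-114668594 (plus) for Rpl38, chr7:24884577-24884606 (plus) for Rps19 and chr9:66946071-66946100 (plus) for Rps27l, in GRCm38.p6.
Rps27: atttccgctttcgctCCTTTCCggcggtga
Rps6: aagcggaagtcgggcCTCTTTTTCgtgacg
Rpl38: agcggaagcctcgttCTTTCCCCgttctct
Rps19: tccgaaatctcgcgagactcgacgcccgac
Rps27l: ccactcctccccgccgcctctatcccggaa

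The H3K4me3 summit lay 215 bp after this start at Rps27, 435 bp at Rps6 and 243 bp at Rpl38. Other motifs were counted on both strands of the 81 member windows, and none of the letter strings contains another. The ETS core CCGGAAG was in 27 windows (33.3%, against 11.6% of all windows) and the Sp1 core GGGCGG in 47 (58.0%, against 46.2%). The YY1 core was in 5 (6.17%, against 1.21%), the TATA box TATAAA in 8 (9.88%, against 12.6%) and the E box CACGTG in 8 (9.88%, against 7.84%). Windows of close starts overlap, and by gene the counts of 69 were 26 for ETS, 41 for Sp1, 3 for YY1, 8 for TATA and 6 for the E box. The median GC content was 58.0% in member windows and 56.3% in all windows.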

How the data were processed

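Each peak list has 10 columns and no header. Bowtie2 2.2.5, SAMtools 1.7, MACS2 2.1.2 and mm10 are named per the submitters' processing notes, without a role or order. The sources used here do not say which libraries or control went into a list. The authors deposited the fold enrichment (a ratio of summit fragments to background), the −log10 p and −log10 q of each peak, an integer score that was not used further, and the summit. From the fold and −log10 p the whole number of fragments k was recovered, with fold as k + 1 over background + 1 and p as the upper Poisson tail. For any k the background was set from the fold, so the fold is matched by construction. The k chosen gave the deposited −log10 p within 0.001 in 100% of peaks of each list.

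Gene positions and start windows came from RefSeq tables of GRCm38.p6. The gene table has no exons, so exons and introns were not told apart. 69 of 89 members, with 81 starts, matched the start table. Python 3.11.15, pandas 2.3.3, NumPy 2.4.6 and SciPy 1.17.1 were used. Intervals are Clopper-Pearson or Poisson at 95% and cover counting error only. The methods were tested on simulated data. Every member with a p53 peak is named, as are the 10 highest and 5 lowest H3K4me3 folds, of which 1 is not reported here, and the listed genes; the rest were chosen after their values were seen. The members and all lists were chosen with earlier results of these data known, so no set test was made. Of the listed genes, Bxdc2, Polr1f, Polr1g and Polr1h matched no symbol.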

Additional observations from a re-analysis of the deposited data

How the results depend on the processing

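The counts of members with a peak were recomputed with windows of 1 and 20 kb, with midpoints inside the gene only, with any base of the peak in the window, at q-values of at most 0.1 and 0.01, among the 50% of peaks with the highest folds, without the suffixed symbols and Rps19bp1, and, added after the data were seen, near gene ends only and after annotated starts. K17KO p53 stayed at 4 or 5 except for 2 without the suffixed symbols. WT p53 stayed at 2 or 3 except for 7 with the 20 kb window, which added Rpl24, Rpl35, Rps14 and Rps26. H3K4me3 ran from 34 to 56, except for 7 in the upper 50% by fold and 28 after annotated starts, where 69 genes could be counted. The share of all protein-coding genes at 20 kb was 5.94% for K17KO p53 and 10.8% for WT p53. Rps19 and Rps27l remained the members in both p53 lists at each q-value and window tried. The p53 peaks at members rest on 6 to 31 fragments, and the fewest in any p53 peak were 6 in the K17KO list and 5 in the WT list. No paired analysis was possible because the lists name no replicate and no test was made, and leaving out a replicate could not be run for the same reason.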
